A study of Mus musculus with 6 samples.

Results

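The genes of the plasminogen activators, their receptor and their inhibitors were described in mouse bone marrow-derived macrophages (BMDMs) with and without Xbp1. The group holds 5 of the 54532 genes in the table, chosen by name: Plau, Plat, Plaur, Serpine2 and Serpinb2. Other genes of the same system are described after them, from lists that are not complete.

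Messenger RNA was measured by RNA sequencing in 6 libraries of BMDMs, cells that are differentiated in a dish from marrow precursors, all from C57BL/6 mice of 32 to 34 weeks. The 3 XWT libraries came from Xbp1FL/FL cells, whose Xbp1 alleles carry recombination sites, and the 3 XKO libraries from Xbp1ΔMf cells, which by their label lack Xbp1 in macrophages. Both groups were primed with lipopolysaccharide (LPS) and then held for 48 h in medium conditioned by wild-type primary hepatocytes, so every library reflects both exposures and none is untreated. The labels used here do not name the Cre driver, and nothing in them ties the samples of a group to different mice or dishes, so the p-values speak only to the variation among these 6 libraries, part or all of which could be technical.

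Plasmin is a serine protease that dissolves fibrin and degrades matrix proteins. It is cut from plasminogen by 2 activators: urokinase, the product of Plau, which works mostly at the cell surface, and tissue plasminogen activator, the product of Plat, best known for clot lysis. Urokinase binds its receptor uPAR, the product of Plaur, a protein held in the membrane by a lipid anchor. Serpins, suicide inhibitors of serine proteases, block the activators: Serpine2 encodes protease nexin-1, which also blocks thrombin, and Serpinb2 encodes plasminogen activator inhibitor 2, a known product of LPS-treated macrophages. Macrophages are known to use urokinase and its receptor during migration through tissue.

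The total counts ran from 28354866 to 30891729 per library. Xbp1 itself stood at 132 to 159 CPM (reads relative to the library's total after TMM scaling) in the XWT libraries and at 76.5 to 79.4 CPM in the XKO libraries; the count covers the whole gene, so it checks the labels only in part. Of 8 macrophage markers all were tested and 7 were not called, with Adgre1, a surface antigen of mature macrophages, at 6614 ± 328 CPM in XWT and 5750 ± 216 CPM in XKO (SD, n = 3 each), while Lyz2, a lysozyme gene, was lower (31140 ± 3553 in XWT, 14274 ± 583 CPM in XKO; edgeR adjusted p = 1.06e-06). The 8 markers, Lyz2 included, summed to 39618 to 47939 CPM in XWT and 25323 to 26962 CPM in XKO. Lyz2 alone made up most of this sum and most of its fall, so the sum does not describe the other 7 markers. The part of these markers in the changes of the 5 genes was not tested. All 7 hepatocyte markers had a count of 0 in every library. Replicates of XWT were less alike than those of XKO, with a chi-square per gene of 20.8 to 23.7 between pairs of XWT and 2.92 to 4.85 between pairs of XKO libraries.

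The promoter sequences are shown for Plaur and Serpine2, which changed in opposite directions and for which RefSeq (GRCm38.p6) gives a start site. RefSeq entries were matched for 3 of the 5 genes: Plaur, Serpine2 and Serpinb2. Each sequence is the 250 bases before the RefSeq start site, 5′ to 3′ on the gene's own strand. For Serpine2 this start lies 2515 bases inside the gene's span in the deposited table, whose outermost start is at 79861180, so the window precedes an internal start; for Plaur the 2 starts are 1 base apart. Capitals mark matches to the AP-1 motif TGANTCA and to the GC box GGGCGG, the binding motif of SP1 factors.

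Plaur: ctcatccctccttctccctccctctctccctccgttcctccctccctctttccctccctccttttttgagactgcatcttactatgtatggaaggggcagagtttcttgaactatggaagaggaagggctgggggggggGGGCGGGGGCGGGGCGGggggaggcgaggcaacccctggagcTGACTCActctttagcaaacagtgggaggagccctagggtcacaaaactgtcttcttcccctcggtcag
Serpine2: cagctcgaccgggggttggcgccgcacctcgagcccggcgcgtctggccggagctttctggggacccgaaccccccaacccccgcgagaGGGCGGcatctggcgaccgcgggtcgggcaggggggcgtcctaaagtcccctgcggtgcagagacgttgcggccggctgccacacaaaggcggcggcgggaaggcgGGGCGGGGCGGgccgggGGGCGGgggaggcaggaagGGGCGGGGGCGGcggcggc

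The Plaur window is chr7:24462233-24462482 on the plus strand, and the Serpine2 window is chr1:79858666-79858915 on the minus strand. The Plaur window has 1 AP-1 match that begins 69 bases before the start, and 3 GC boxes that begin 111, 105 and 100 bases before it, the last pair sharing a base. In Serpine2 there are 6 GC boxes, between 161 and 13 bases before the start, and no AP-1 match. Of 32851 windows of this length in the RefSeq table, 6.75% hold an AP-1 match and 32.7% a GC box, counting both strands. The letters ACGTG, the core of the motif bound by XBP1, occur in 16.6% of all windows and in neither of these. The Serpine2 window had a GC content of 78.8% and the Plaur window 59.6%, against a median of 52.4% over all windows. A match in such a window is a description of the letters and not a binding site.

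Plau and Plaur were higher in XKO, Serpine2 was lower, and Serpinb2 was not called. Plat was not tested because too few libraries passed the filter on low counts. In all, 4 of the 5 genes were tested; 2 were called higher and 1 lower by edgeR's quasi-likelihood test, with a threshold of 0.05 on the p adjusted over 14333 genes (Benjamini-Hochberg). Of all tested genes, 14.0% were called in either direction, 6.00% higher and 7.99% lower, and for 36.2% the XWT and XKO values lay fully apart. With library size alone in place of TMM, 60.7% of the calls over all genes were higher, against 42.9% here. The direction and the call of each of the 4 tested genes stayed the same under that scaling.

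**Figure D1:**
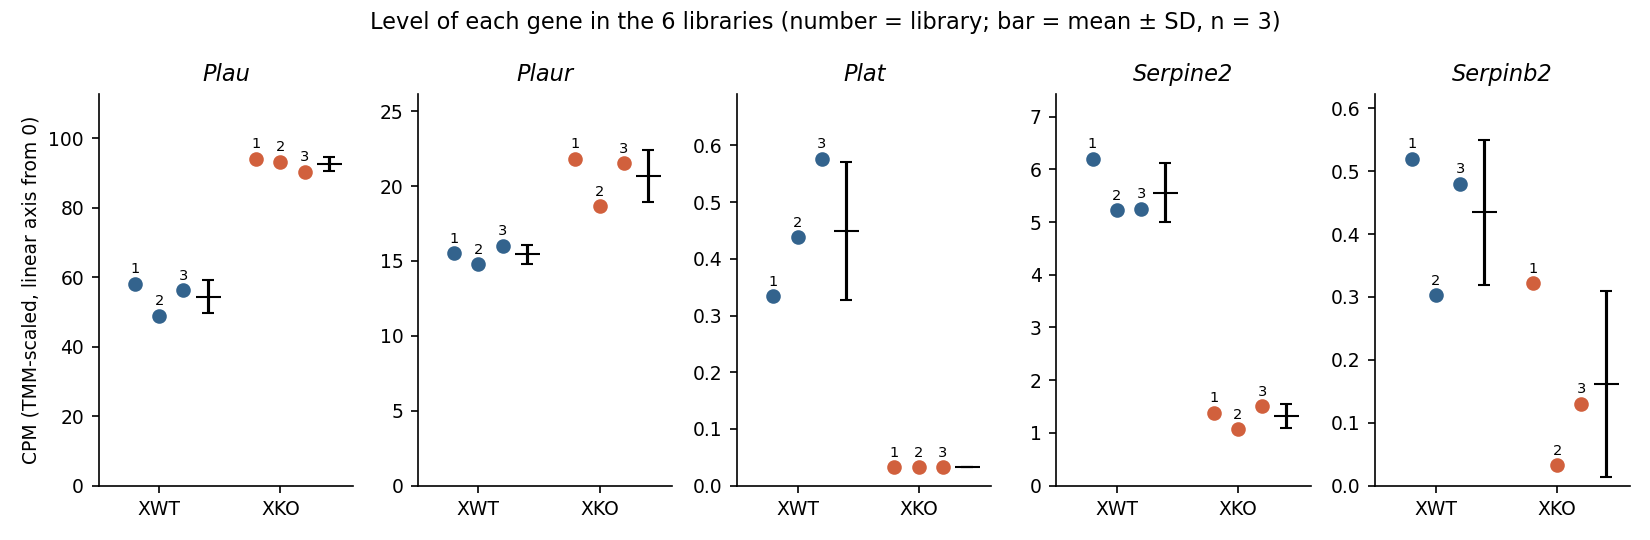
TMM-scaled CPM (linear axes from 0) of Plau, Plaur, Plat, Serpine2 and Serpinb2 in XWT (blue) and XKO (orange). Each point is a library with its number, and the bars are the mean ± SD of 3 libraries. The groups are apart for Plau, Plaur, Plat and Serpine2 and overlap for Serpinb2.

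Plau, the urokinase gene, rose in XKO. It is ENSMUSG00000021822, protein-coding, on chromosome 14 from 20836660 to 20843385 on the plus strand, in the table's coordinates, which match GENCODE M21 (GRCm38). Its level was 58.2, 48.9 and 56.2 CPM in the XWT libraries 1 to 3 and 94.0, 93.2 and 90.4 CPM in the XKO libraries 1 to 3. Every XKO library was above every XWT library, and the XKO values lay closer together than the XWT values. The means were 54.4 ± 4.88 CPM in XWT and 92.5 ± 1.92 CPM in XKO (SD, n = 3 each), and these rest on 4775 and 8550 reads. The edgeR fit gave a log2 fold change of 0.77 (SE 0.074, 95% interval 0.61 to 0.93), a 1.70-fold rise (edgeR adjusted p = 1.11e-05). By size of the rise Plau stood 521st of the 14333 tested genes, and 20.7% of tested genes had a higher mean level in CPM.

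Plaur, the gene of the urokinase receptor, rose by less. It is ENSMUSG00000046223, on chromosome 7 from 24462484 to 24475968 on the plus strand. The level was 15.5, 14.8 and 16.0 CPM in XWT 1 to 3 and 21.8, 18.7 and 21.5 CPM in XKO 1 to 3. Here too the groups did not overlap, with XKO 2 the nearest to the XWT values. The means were 15.4 ± 0.61 CPM in XWT and 20.7 ± 1.74 CPM in XKO (SD, n = 3 each). The edgeR fit gave a log2 fold change of 0.42 (SE 0.093, 95% interval 0.22 to 0.62), a 1.34-fold rise (edgeR adjusted p = 0.00963). The call ended without XKO 1 (0.38, adjusted p = 0.0690) and without XKO 3 (0.39, adjusted p = 0.0648), while the direction held. The promoter printed above belongs to this gene.

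Plat, the gene of tissue plasminogen activator, was low in XWT and lower in every XKO library. It is ENSMUSG00000031538, on chromosome 8 from 22757727 to 22782844 on the plus strand. It had 9, 13 and 18 reads in XWT 1 to 3 and 1 read in each XKO library, or 0.33 to 0.58 CPM against 0.032 to 0.033 CPM. The sums of 40 and 3 reads give a rate 14.0-fold higher in XWT, with an exact 95% Poisson interval of 4.47 to 70.8 that covers counting error only. An exact two-sided permutation test over the 6 libraries gave p = 0.1, the smallest this design allows. The gene was not tested in the fit because only 2 libraries passed the filter's cut-off of 0.332 CPM where 3 were needed. The filter uses CPM before TMM scaling, on which XWT 1 stood at 0.317. Without that filter edgeR gave a log2 fold change of -3.64 with a standard error of 0.83 (adjusted p = 0.000318 over 25431 genes). The size depends on how the fit treats single reads, and the p is not on the scale of the main fit. Without the filter the edgeR adjusted p of Plau was 6.09e-20, against 1.11e-05 with it. That of Serpinb2 hardly moved (0.136 against 0.133). The authors' deposited table gives -3.80 for Plat with an adjusted p of 0.00802.

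Serpine2, the gene of protease nexin-1, fell, with the largest change of the 3 called genes. It is ENSMUSG00000026249, on chromosome 1 from 79794197 to 79861180 on the minus strand. The level was 6.20, 5.22 and 5.25 CPM in XWT 1 to 3 and 1.39, 1.07 and 1.50 CPM in XKO 1 to 3. All XKO libraries were far below the lowest XWT library, and all 6 passed the filter on low counts, with 155 to 167 reads in XWT and 33 to 46 in XKO. The means were 5.56 ± 0.56 and 1.32 ± 0.22 CPM (SD, n = 3 each). The edgeR fit gave a log2 fold change of -2.07 (SE 0.19, 95% interval -2.48 to -1.66), a 4.19-fold lower level (edgeR adjusted p = 6.38e-06). Among the 14333 tested genes it had the 243rd largest fall.

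Markers of fibroblasts and stroma moved with Serpine2 and Plat. All 10 tested of 13 such markers were called lower in XKO, against 7.99% of all tested genes. Their median log2 fold change was -3.20, and the summed level of the 13 was 700 to 812 CPM in XWT and 67.4 to 83.5 CPM in XKO. None of the 13 was at 0 in all 6 libraries; Lum, which was not tested, had 1 read in XWT 1 and 0 in the other 5 libraries. Serpine2 and Plat are known from fibroblasts, and in bulk RNA fewer cells of a type cannot be told apart from less RNA per cell. Plat is also known from endothelial cells, whose 6 markers summed to 87.8 to 95.3 CPM in XWT and 93.0 to 99.2 CPM in XKO, with 1 of 4 tested, Pecam1, lower and 3 not called. The part of these markers in the lower levels of Serpine2 and Plat was not tested.

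Serpinb2, the gene of plasminogen activator inhibitor 2, had few reads in both groups. It is ENSMUSG00000062345, on chromosome 1 from 107511423 to 107535478 on the plus strand. It had 14, 9 and 15 reads in XWT 1 to 3 and 10, 1 and 4 reads in XKO 1 to 3. The groups overlapped, since the 0.32 CPM of XKO 1 lay above the 0.30 CPM of XWT 2. The edgeR fit gave a log2 fold change of -1.39 (SE 0.60, 95% interval -2.69 to -0.10) for the single gene (edgeR adjusted p = 0.133, unadjusted p = 0.0363), so a difference was not detectable at this depth after adjustment. The fitted value ranged from -2.35 without XKO 1 to -0.92 without XKO 2. Of the tested genes, 99.2% had a higher mean level.

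**Figure D2:**
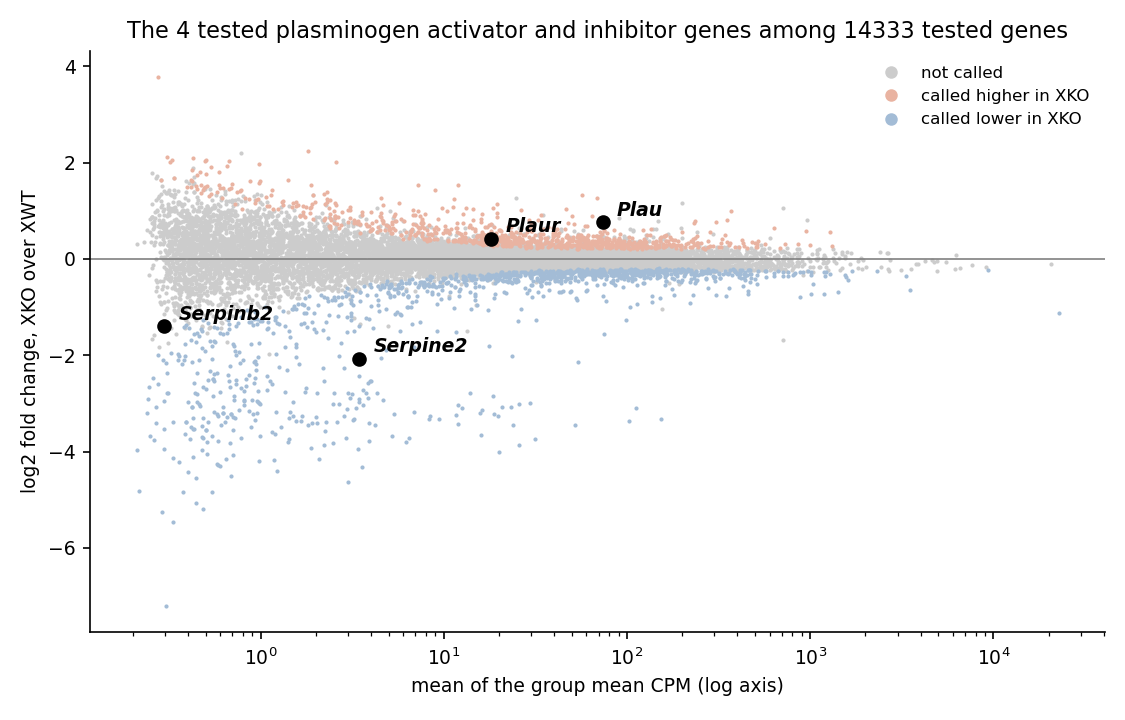
Log2 fold change of XKO over XWT against the mean CPM (log axis) of 14333 tested genes, with called genes in colour and Plau, Plaur, Serpine2 and Serpinb2 in black. Plau (0.77) and Plaur (0.42) lie in the upper band at middle to high levels, Serpine2 (-2.07) in the lower cloud, and Serpinb2 (-1.39) at the left edge among genes of few reads.

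Per gene length, Plau stood highest and Plaur next in both groups. In the authors' FPKM (reads per kilobase and per library total), the XWT means were 22.9 ± 2.00 for Plau, 5.89 ± 0.20 for Plaur, 0.67 ± 0.068 for Serpine2, 0.18 ± 0.049 for Serpinb2 and 0.072 ± 0.019 for Plat (SD, n = 3). In XKO they were 38.9 ± 0.82, 7.85 ± 0.66, 0.16 ± 0.027, 0.069 ± 0.062 and 0.0052 ± 0.000033 in the same order. In XWT the ranges of neighbours in this order did not overlap. In XKO those of Serpine2 (0.129 to 0.180 FPKM) and Serpinb2 (0.0138 to 0.136 FPKM) did. Serpinb2 and Plat had 1 read each in XKO 2, where their FPKM differ only by gene length (2349 and 6241 bases), so no order is read between them in XKO. On this scale Plau was the more abundant activator transcript in both groups.

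Ratios of these genes within a library do not depend on the scaling between libraries. The FPKM of Plau was 32.9, 32.8 and 37.5 times that of Serpine2 in XWT 1 to 3, against 238, 304 and 211 times in XKO 1 to 3. For Plaur over Serpine2 the XWT ratios were 7.93, 8.97 and 9.65, and the XKO ratios 49.9, 55.1 and 45.4. Both ratios were higher in each XKO library than in any XWT library. Between Plau and Plaur the ratio was 4.14, 3.66 and 3.88 in XWT and 4.77, 5.52 and 4.64 in XKO, and the XKO ratios were higher by 0.35 on the log2 scale. Each of the 3 ratios gave an exact two-sided permutation p = 0.1, the smallest possible with 3 against 3, and 0.1 after adjustment over the 3. For the 2 ratios over Serpine2 this outcome was fixed, since the single genes already lay fully apart in opposite directions. The ratios were chosen after the values were seen.

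**Figure D3:**
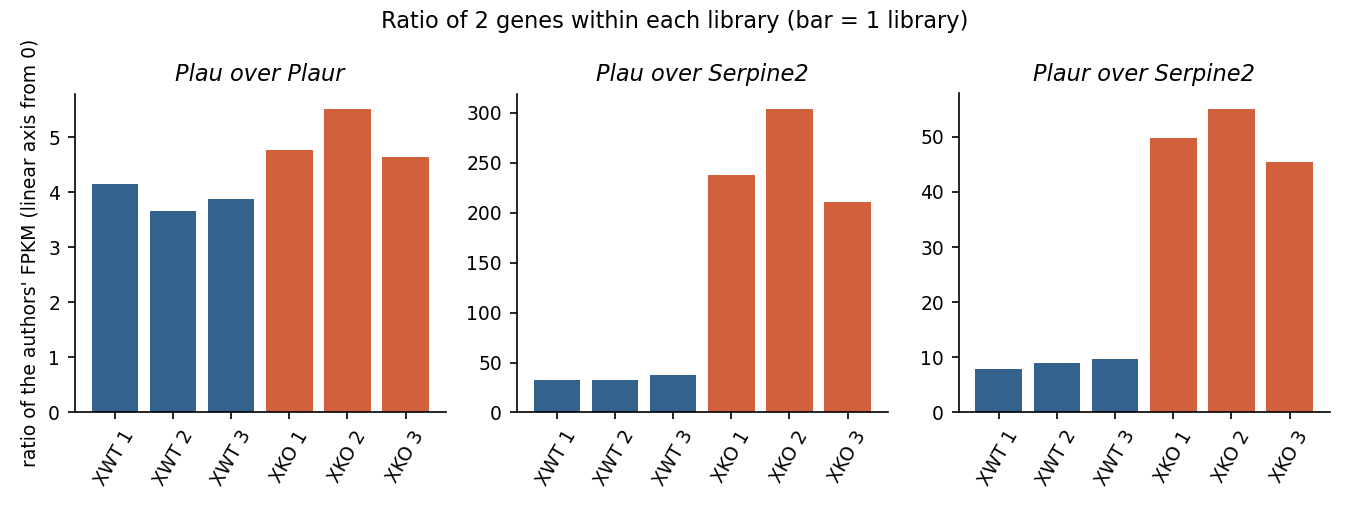
Ratio of the authors' FPKM of 2 genes within each library (linear axes from 0, 1 bar a library, XWT blue and XKO orange): Plau over Plaur, Plau over Serpine2 and Plaur over Serpine2. In each panel the XKO bars are above the XWT bars, by little for Plau over Plaur (4.64 to 5.52 against 3.66 to 4.14) and by much for the ratios to Serpine2.

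Most tested markers of neutrophils moved in the same direction as Plau and Plaur. Of 10 markers 9 were tested, of which 7 were called higher in XKO and 2 were not called, against 6.00% of all tested genes called higher. The median log2 fold change of the 9 was 0.90. The summed level of the 10 was 31.1 to 40.0 CPM in XWT and 61.6 to 65.8 CPM in XKO. None was at 0 in all libraries, and Elane, Mpo and Prtn3, the genes of primary granules, stood at means of 0.20 to 0.83 CPM. The part of these markers in the rises of Plau and Plaur was not tested.

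By GENCODE M21 none of the 5 genes overlaps a gene on the other strand, and 4 overlap no gene at all. Serpinb2 overlaps Serpinb10 on the same strand, which had means of 0.012 CPM in XWT and 0.021 CPM in XKO. The nearest tested genes on either side of each were also read from the fit. For Plau these were Camk2g (0.14 ± 0.078, log2 fold change and SE) and Vcl (-0.10 ± 0.079), and for Serpine2 Mrpl44 (-0.09 ± 0.096) and Gm5529 (-0.01 ± 0.14). Those of Plaur, Smg9 and Zfp428, and those of Plat, Ikbkb and Ap3m2, were not called either. The 1 called neighbour was Serpinb8, 54528 bases beyond Serpinb2, with a log2 fold change of 0.39 (edgeR adjusted p = 0.00490).

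Lists of 66 other genes of the system were read from the same fit. The lists were chosen with earlier results of these data known, so their shares are a description only. Of these 42 were tested, 14 were higher and 5 lower in XKO and 23 were not called; that is 33.3% higher and 11.9% lower, against 6.00% and 7.99% of all tested genes. Their median log2 fold change was 0.09, and that of all tested genes 0.00. Leaving out XKO 1 or XKO 2 left 5 higher, leaving out XKO 3 left 7, and leaving out any 1 of these left 3 lower. Over all tested genes the shares fell in the same fits, to 2.16%, 1.87% and 2.04% higher and 4.09%, 3.63% and 4.08% lower, and those of the lists to 11.6%, 11.9% and 16.3% higher and 6.98%, 7.14% and 6.98% lower, without XKO 1, 2 and 3 in turn.

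Plasminogen itself, Plg, had a count of 0 in every library, which allows up to 0.111 CPM in the shallowest library (3 counts). Of its binding proteins at the cell surface, 1 was higher and 3 were not called. Plgrkt, a plasminogen receptor with a C-terminal lysine, rose from 38.6 ± 3.68 to 48.6 ± 2.35 CPM (SD, n = 3 each; log2 fold change 0.33 ± 0.082, SE; edgeR adjusted p = 0.0169), a call that ended without XKO 1 (0.29, adjusted p = 0.102), XKO 2 (0.36, 0.0562) or XKO 3 (0.34, 0.0676). The others were Eno1 (0.12 ± 0.070), the annexin gene Anxa2 (-0.15 ± 0.079) and its partner S100a10 (0.12 ± 0.080).

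Among 14 tested partners and clearance receptors of uPAR, 4 were higher and 3 lower. Mrc2 fell most, from 7.12 ± 0.85 to 0.67 ± 0.15 CPM (log2 fold change -3.40; edgeR adjusted p = 1.04e-07). It encodes Endo180, a collagen receptor that binds the uPAR complex, and is also known from fibroblasts, whose markers fell in the same libraries (median -3.20); their part was not tested. Vldlr, a receptor that takes up complexes of activator and serpin, fell from 3.68 ± 0.44 to 1.61 ± 0.41 CPM, while Lrp8 of the same receptor family rose from 18.9 ± 2.90 to 27.5 ± 1.08 CPM and the integrin gene Itgav from 203 ± 23.4 to 281 ± 1.21 CPM (SD, n = 3 each). The other called genes, named after their values were seen, were the integrin genes Itga5 (0.24) and Itgb2 (-0.32) and Igf2r (0.26), the gene of a receptor for mannose 6-phosphate. The calls of these 3 ended without any 1 of the XKO libraries, with edgeR adjusted p of 0.0573 (Itgb2) to 0.167 (Itga5), and that of Itga5 also without XWT 2 (0.19, adjusted p = 0.0709). Lrp1, the main clearance receptor of urokinase and serpin complexes on macrophages, stood at 2754 ± 117 and 2721 ± 141 CPM, with a log2 fold change of -0.02 ± 0.069 (SE).

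Other serpins moved in both directions. Of 9 further inhibitors of plasmin or its activators, only Serping1 and Serpini1 passed the filter on low counts. Serping1, the gene of C1 inhibitor, fell from 2.65 ± 0.44 to 0.19 ± 0.14 CPM (SD, n = 3 each; log2 fold change -3.74 ± 0.38, SE; edgeR adjusted p = 1.80e-05), in the same libraries as the stromal markers, and a link was not tested. It had 82, 81 and 68 reads in XWT 1 to 3 and only 11, 4 and 3 in XKO 1 to 3. Serping1 thus passed the filter through the XWT libraries, and was not tested where every library needed at least 10 counts. Among 9 tested relatives of Serpinb2 in clade B, 5 were higher and 1 lower. Serpinb9b rose from 4.85 ± 0.061 to 9.64 ± 1.46 CPM, Serpinb8 from 50.1 ± 4.91 to 65.7 ± 1.75 CPM and Serpinb1c from 1.65 ± 0.046 to 3.15 ± 0.55 CPM, and Serpinb6a fell from 522 ± 38.8 to 423 ± 6.30 CPM (SD, n = 3 each). The remaining called genes, Serpinb9 (0.36) and Serpinb6b (0.29), were named after their values were seen. Mouse clade B holds close paralogs of Serpinb1, Serpinb6 and Serpinb9 between which reads can be split, so these single values are uncertain. The call of Serpinb1c ended without XKO 1 (0.86, edgeR adjusted p = 0.0621) or XKO 2 (0.85, 0.0679), and that of Serpinb6a without any 1 of the XKO libraries (-0.32 to -0.30, 0.0624 to 0.0814). Serpinb9 lost its call without each library but XWT 1 (0.29 to 0.39, adjusted p 0.0572 to 0.148), and Serpinb6b without XWT 1 or any XKO library (0.26 to 0.34, 0.0510 to 0.152).

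Of 13 tested proteases, clotting factors and substrates of the cascade, 4 were higher and 0 lower by edgeR; 0 were lower also at an unadjusted p under 0.05, with DESeq2 and with limma-voom. Procr, the gene of the receptor for protein C, rose from 42.8 ± 1.28 to 58.8 ± 5.20 CPM, and F10 and F7, the genes of clotting factors X and VII, from 16.9 ± 2.06 to 23.0 ± 1.68 CPM and from 5.76 ± 0.75 to 8.20 ± 0.58 CPM. Mmp14, a membrane-bound metalloproteinase gene, rose from 355 ± 20.6 to 419 ± 14.3 CPM (SD, n = 3 each). The call of F10 ended without XKO 1 (0.44, edgeR adjusted p = 0.0543) or XKO 2 (0.40, 0.0807). That of F7 ended without XWT 1 or any XKO library (0.40 to 0.56, adjusted p 0.0610 to 0.115), and that of Mmp14 without XWT 2 or any XKO library (0.21 to 0.27, 0.0659 to 0.157). The fibrinogen genes Fga, Fgb and Fgg had a count of 0 in all 6 libraries. Mmp9, a gelatinase gene, did not pass the test, with a log2 fold change of -0.09 ± 0.077 (SE).

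**Figure D4:**
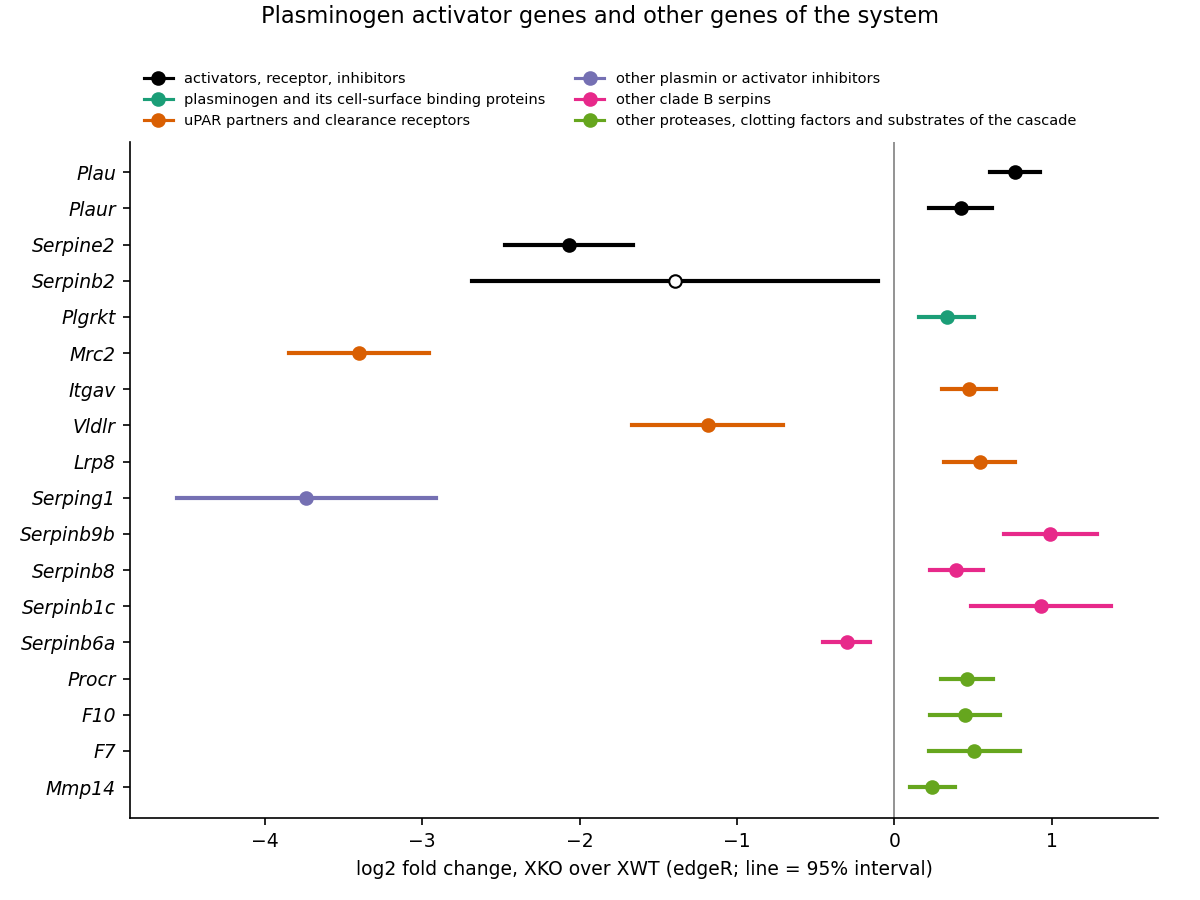
Log2 fold change of XKO over XWT (edgeR) with its 95% interval for Plau, Plaur, Serpine2, Serpinb2 and the genes named by rule from the 5 other lists, coloured by list; open symbols were not called. Mrc2 (-3.40) and Serping1 (-3.74) lie left of Serpine2 (-2.07), and the rises span 0.24 (Mmp14) to 0.99 (Serpinb9b).

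The genes most like each tested gene were sought over the 6 libraries, by the root mean square difference of log2 CPM after centring each gene on its own mean. Nearest to Plau were Ppp1r12b, a gene of a myosin phosphatase subunit, at a difference of 0.019, the kinase gene Plk3 at 0.044 and Plek, the gene of pleckstrin, at 0.047. Nearest to Plaur were Mthfd1l at 0.043, Hsd17b7 at 0.046 and the inflammasome sensor gene Nlrp3 at 0.047. Serpine2 had no neighbour as close: the nearest were Fscn1, the gene of the actin bundler fascin, at 0.18, Igfbp7 at 0.19 and the basement membrane collagen gene Col4a1 at 0.21. For Serpinb2, with its few reads, they were Anks6, Cacna1d and Palld at 0.12 to 0.15. The added 0.5 shrinks the changes of genes of low level. These 3 had log2 fold changes of -0.78 to -0.43, against -1.39 for Serpinb2 itself. These likenesses come from 9356 or 9357 candidate genes over 6 libraries in 2 groups and are a description only.

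**Figure D5:**
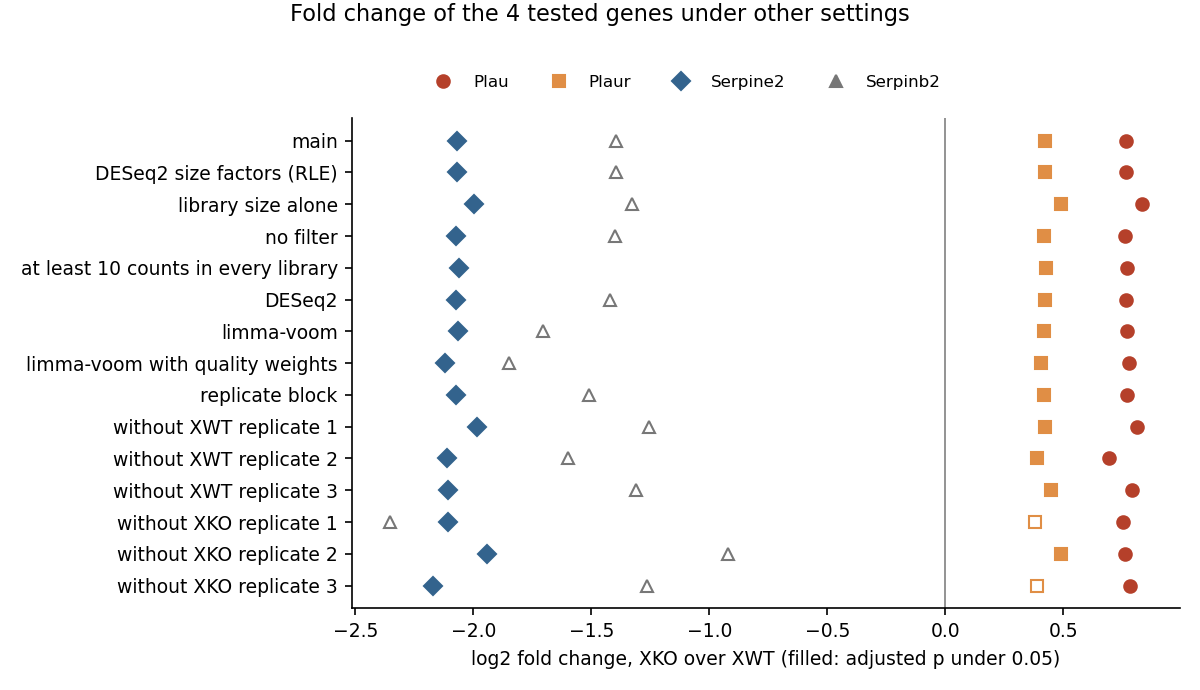
Log2 fold change of Plau, Plaur, Serpine2 and Serpinb2 under the main and 14 other settings (rows); filled symbols have an adjusted p under 0.05. Plau (0.69 to 0.83) and Serpine2 (-2.17 to -1.94) are filled in every row, Plaur is open without XKO 1 and without XKO 3, and Serpinb2 is open in every row that tests it.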

How the data were processed

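RNA was sequenced from 6 samples grouped by their titles. Trizol RNA went into NEBNext Ultra RNA libraries, per the labels' protocols. Bowtie 0.12.2 and 2 genome builds, mm8 and mm10, are listed in the submitters' processing notes without saying which served for what. The read counter, the annotation and the strand setting were not given in the sources used here. Per the file headers, the 1 table that the authors deposited holds whole-number read counts for each Ensembl gene. It also has the authors' FPKM, used here only to compare levels and ratios between genes. The same deposited table gives scaled group means (a signal) and, for XKO over XWT, a log2 fold change with its p-value and adjusted p, from a tool that the headers leave unnamed. Gene lengths in bases are in another column of the deposited table.

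Counts were fitted with edgeR 4.0.16 in R 4.3.3: filterByExpr kept 14333 of 54532 genes, TMM scaled the libraries, and a robust quasi-likelihood test with 4 residual degrees of freedom compared XKO with XWT, with Benjamini-Hochberg adjustment and a threshold of 0.05. CPM are TMM-scaled, and a standard error is the log2 fold change over the square root of F. Low CPM values carry counting error beside the biological coefficient of variation of 0.0865. The scripts were tested on simulated data. From each list the rule names up to 4 called genes of smallest p, or 2 of highest mean CPM where none is called, and for each tested gene the 3 most alike with at least 5 CPM (log2 of CPM + 0.5). The 5 genes and all lists were chosen with earlier results of these data known. Some genes of the plasminogen system are not reported here. Alternatives used DESeq2 1.42.0, limma 3.58.1, other scalings and filters, a replicate block, a stricter threshold and each library left out.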

Additional observations from a re-analysis of the deposited data

How the results depend on the processing

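Plau and Serpine2 kept their direction and their call in all 15 alternatives, with values of 0.69 to 0.83 and -2.17 to -1.94, and Serpinb2 stayed uncalled in the 14 that tested it. Plaur lay between 0.38 and 0.49 and lost its call only without XKO 1 (0.38) or XKO 3 (0.39), and the number of the 5 genes called higher then fell from 2 to 1. The number called lower rose from 1 to 2 with no filter and without XWT 1 or any XKO library, because Plat was then tested and called. With a library left out the filter asks for fewer libraries. Plat then passed through 2 XWT libraries, where it is high, and 0 XKO libraries, so these calls add no support. Leaving out libraries gave 1 to 2. With each library left out, 5 to 13 of the other genes of the system were higher and 3 to 6 lower, and at an adjusted p under 0.01, 6 were higher. Over all tested genes, leaving out a library gave 274 to 2073 higher and 532 to 2164 lower genes. Both upper ends came from the fit without XWT 3. Without any 1 of the other libraries there were 274 to 639 higher and 532 to 975 lower, against 860 and 1145 in the main fit. At an adjusted p under 0.01 there were 262 higher and 544 lower, and with library size alone 749 lower. The cause of these shifts was not tested, though leaving out a library also lowers the number of samples.

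The replicate numbers were not taken as pairs: samples of the same number correlated at -0.080 to -0.027 after removal of group means, and 0 of 6 libraries were closest to their own number. The fit with a replicate block gave 1068 higher and 1127 lower genes, with log2 fold changes of 0.77 for Plau, 0.42 for Plaur, -2.07 for Serpine2 and -1.51 for Serpinb2, and the same calls for these genes. Depth limits what can be said of Plat and Serpinb2, which had at most 18 reads in any library.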
